A study of Rattus norvegicus with 9 samples.

Results

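Nr4a1, Nr4a2 and Nr4a3 are the 3 genes of the Nr4a family of orphan nuclear receptors, and they were taken by gene symbol from a table of 32623 genes measured in all 9 libraries of the series. All 3 were among the 16284 genes that passed the filter on low counts and were tested. RNA was sequenced from WT primary cortical neurons, which were prepared from Wistar rat embryos of embryonic day 16 to 18 and cultured over electrodes of conductive indium tin oxide glass. The ACS group (n = 3) received alternating current stimulation, the DCS group (n = 3) received direct current stimulation, and the control group (n = 3) received neither. The labels give both currents as 3 μA, 20 Hz and 20 min for 7 days, and the study's methods give a frequency for ACS only. The labels place the cells at 7 days in vitro (DIV) in one field and run the culture to 14 DIV in another, and the time between the last stimulation and RNA extraction is not given in the sources used here. Whether the 3 libraries of each group stand for independent cultures is not stated, and the p-values therefore reflect the variation among these libraries alone, which may be technical.

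The Nr4a proteins are transcription factors of the nuclear receptor superfamily in which the ligand pocket is closed, so that their activity depends mainly on how much of the protein is made and how it is modified. They bind DNA as monomers at the NBRE (NGFI-B response element) and as dimers at related palindromes, and Nr4a1 and Nr4a2 also pair with retinoid X receptors. Their genes are immediate early genes: in neurons, depolarization and calcium entry switch them on within minutes through CREB, MEF2 and SRF already present in the cell. Nr4a1 (Nur77, NGFI-B) acts in neurons on dendritic spines, in metabolism and in apoptosis, Nr4a2 (Nurr1) is required for midbrain dopamine neurons and marks deep cortical layers, and Nr4a3 (Nor1) acts in the inner ear, the hippocampus and muscle.

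The table places Nr4a1 (ENSRNOG00000007607) on the plus strand at chr7:142905758-142920216 and lists 2 transcripts. Nr4a2 (ENSRNOG00000005600), also with 2 transcripts, lies on the minus strand at chr3:43111240-43119159. Nr4a3 (ENSRNOG00000005964), with 1 transcript, lies on the plus strand at chr5:63781801-63821637. These positions are as the table gives them, and it names no genome build, while the study's methods give a name used for a human one. The table's gene ontology terms numbered 43 for Nr4a1, 49 for Nr4a2 and 68 for Nr4a3, and 19 terms were shared by all 3, among them steroid hormone receptor activity and glucocorticoid receptor binding. The term for the response to an electrical stimulus was attached to Nr4a1 alone among them, and the KEGG pathways listed for Nr4a1 included MAPK and PI3K-Akt signaling.

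The DNA before an annotated start of Nr4a1 and of Nr4a2 is shown, in the direction of transcription. Both windows hold 250 bases from RefSeq (build GRCr8). The Nr4a1 window is chr7:134259888-134260137 on the plus strand and the Nr4a2 window is chr3:62104888-62105137 on the minus strand, and in both genes this start lies inside the annotated gene span and not at its outer edge. No window was used for Nr4a3, and a link between these sequences and the differences between members was not tested. Capitals mark the short core of the cAMP response element (CRE), CGTCA on either strand.
Nr4a1: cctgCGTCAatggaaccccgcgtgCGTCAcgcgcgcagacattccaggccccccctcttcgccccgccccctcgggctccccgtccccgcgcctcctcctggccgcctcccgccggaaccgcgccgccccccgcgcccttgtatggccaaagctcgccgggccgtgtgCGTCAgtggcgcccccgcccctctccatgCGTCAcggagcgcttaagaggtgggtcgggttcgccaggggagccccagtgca
Nr4a2: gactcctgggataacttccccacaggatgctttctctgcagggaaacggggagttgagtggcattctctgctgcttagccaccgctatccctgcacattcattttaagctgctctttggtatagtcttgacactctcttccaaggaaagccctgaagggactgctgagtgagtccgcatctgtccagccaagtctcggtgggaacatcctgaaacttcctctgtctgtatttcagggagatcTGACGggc

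The Nr4a1 window held 4 CRE cores, all on the plus strand, which began 246, 226, 82 and 53 bases before the start. At least 1 core was found in 18.2% of the 33469 windows of this length in the RefSeq table, and 4 or more in 0.173% of them. The Nr4a2 window held 1 core, on the minus strand, from 8 to 4 bases before the start. The full CRE (TGACGTCA), the AP-1 site (TGANTCA), the NBRE (AAAGGTCA) and the CArG box of SRF were in neither window, searched on both strands, and were in 1.59%, 6.34%, 1.24% and 1.50% of all windows. An Egr site (GCGNGGGCG) was present once in the Nr4a1 window, 73 to 65 bases before the start on the minus strand, and in 4.29% of all windows. The GC content was 74.8% in the Nr4a1 window and 52% in the Nr4a2 window. Counted by gene and not by window, 16 of 29 other early response genes with a window held at least 1 CRE core and none held 4. Of all 27457 genes with a window, 20.0% held at least 1 and 0.200% held 4 or more. A full CRE contains the core, and these letter matches say nothing of binding. The shares over all windows and over all genes were not matched for GC content. Both windows lie before starts inside the gene span, and whether these starts were used in the cultured cells was not tested. The 2 windows are therefore not a comparison of promoters.

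The total count per library ranged from 49039412 to 52938628 in the ACS group, from 52370330 to 68133858 in the DCS group and from 53910745 to 68690760 in the control group. Log2 CPM (counts scaled to library size) values of the libraries correlated with r between 0.961 and 0.973 over the 36 pairs, across genes, and no library stood apart. The ACS libraries were thus shallower than every control library, and the part of this in the results was not tested.

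Nr4a1 was the member that rose most with ACS. Its counts were 1732, 1311 and 2171 in the 3 ACS libraries, 262, 340 and 551 in the DCS libraries and 185, 382 and 477 in the control libraries. In CPM, these were 34.3, 26.8 and 41.2 with ACS, 5.02, 5.88 and 7.92 with DCS, and 3.46, 5.59 and 7.40 in control. The lowest ACS library was 3.63 times the highest control library and 3.39 times the highest DCS library, while the DCS and control libraries overlapped. The mean was 34.1 ± 7.18 CPM in the ACS group and 5.48 ± 1.97 CPM in the control group (SD, n = 3 each). Nr4a1 rose 6.21-fold with ACS over control, with a 95% interval of 4.02 to 9.60 (log2 fold change 2.63, SE 0.28; edgeR quasi-likelihood F test, Benjamini-Hochberg adjusted p = 0.00184).

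**Figure D1:**
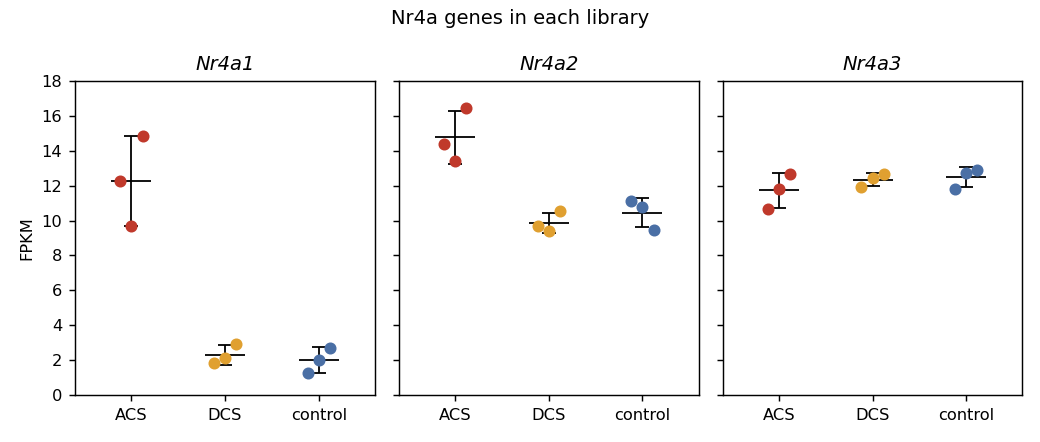
FPKM (vertical axis) of Nr4a1, Nr4a2 and Nr4a3 in each library of the ACS, DCS and control groups; points are libraries, and the long bar and whiskers give the mean and SD (n = 3). The ACS points lie above all others for Nr4a1 and Nr4a2, with Nr4a1 at 9.68 to 14.9 FPKM in ACS against 1.24 to 2.71 in control, while the Nr4a3 points of the 3 groups overlap.

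Nr4a2 rose less, and its ACS libraries also stood above all others. It measured 51.1, 47.3 and 57.9 CPM in the ACS libraries, 34.0, 32.6 and 36.1 CPM in the DCS libraries and 39.0, 37.8 and 32.8 CPM in the control libraries. The lowest ACS library was 1.21 times the highest control library. The mean was 52.1 ± 5.37 CPM with ACS and 36.5 ± 3.27 CPM in control, a 1.43-fold rise with an interval of 1.24 to 1.64 (log2 fold change 0.51, SE 0.09; edgeR adjusted p = 0.0163). This call was lost without ACS library 1 (log2 fold change 0.52, edgeR adjusted p = 0.0587) and without control library 2 (0.54, adjusted p = 0.0633), and the direction was kept.

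Nr4a3 was not called, and its groups overlapped. It was at 49.4, 54.1 and 58.1 CPM in the ACS libraries, 54.5, 56.4 and 56.5 CPM in the DCS libraries and 54.1, 58.1 and 58.0 CPM in the control libraries. The ACS range enclosed the whole DCS range and overlapped that of control. The ratio of ACS to control was 0.949, and the 95% interval of the log2 fold change ran from -0.22 to 0.07 (edgeR adjusted p = 0.545).

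Of the 3 members, 2 were called higher with ACS than in control, against 2.83% of all tested genes. The libraries of the groups did not overlap, with ACS higher, for the same 2 members and for 14.0% of all tested genes. Among the 461 genes called higher, the log2 fold change of Nr4a1 was the third largest and that of Nr4a2 ranked 144. Among all tested genes, called or not, Nr4a1 ranked 33 and Nr4a2 ranked 1180. The called genes above Nr4a1, looked up after its rank was known, were Tlcd2, at a mean of 0.267 CPM with ACS and 0.00517 CPM in control, and Moap1, at 10.01 CPM with ACS and 0.509 CPM in control. In a bulk culture, a larger share of cells that express a gene and more RNA per cell cannot be told apart.

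DCS gave no call for any of the 3 members. Nr4a1 averaged 6.27 ± 1.49 CPM with DCS and 5.48 ± 1.97 CPM in control, with a log2 fold change of 0.19 and an interval of -0.41 to 0.80 (edgeR adjusted p = 0.875). This estimate had no stable sign: it was -0.047 without control library 1 and -0.016 without DCS library 3, and 0.47 without control library 3. Nr4a2 averaged 34.2 ± 1.75 CPM with DCS and 36.5 ± 3.27 CPM in control, with an interval of -0.29 to 0.11 on the log2 scale (adjusted p = 0.815). Nr4a3 averaged 55.8 ± 1.14 CPM with DCS and 56.7 ± 2.30 CPM in control, with an interval of -0.17 to 0.12 (adjusted p = 0.940). The lower and upper ends of these intervals bound the falls and rises that could have been missed, and for Nr4a1 the interval is wide. The count of 0 of 3 by edgeR was also 0 at an unadjusted p under 0.05 and 0 by DESeq2, and over all genes 0.0123% were called in this comparison in either direction.

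The currents were then compared directly, with the same ACS libraries. Nr4a1 was 5.43-fold higher with ACS than with DCS, with an interval of 3.53 to 8.36 (log2 fold change 2.44, SE 0.28; edgeR adjusted p = 0.00551). Nr4a2 was 1.52-fold higher, with an interval of 1.32 to 1.75 (log2 fold change 0.61, SE 0.09; adjusted p = 0.0208). For Nr4a3 the log2 fold change was -0.05, with an interval of -0.19 to 0.09 (adjusted p = 0.789). Thus 2 of 3 members were called higher with ACS, against 0.510% of all tested genes, and the same 2 did not overlap between the groups, against 11.2%. The Nr4a2 call was lost when ACS library 1, ACS library 3, DCS library 1 or DCS library 2 was left out, with adjusted p of 0.0803, 0.0765, 0.0775 and 0.115 by edgeR, and the direction was kept. With the labels' replicate numbers as a block, its adjusted p was 0.0501.

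**Figure D2:**
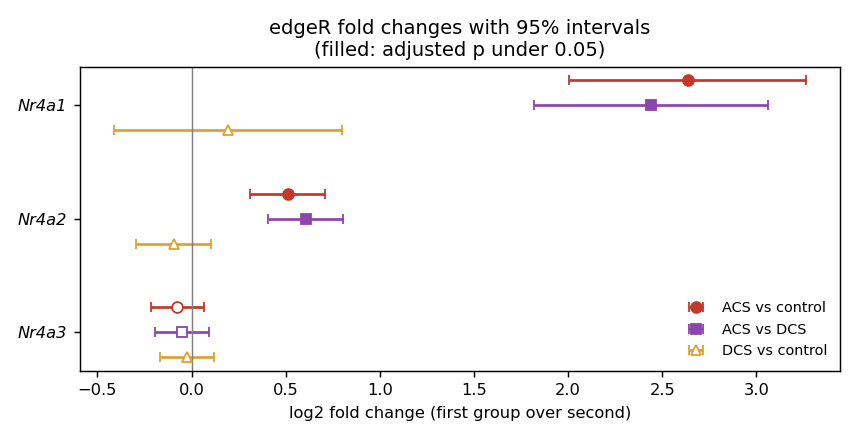
Log2 fold change of each member (horizontal axis) for ACS over control, ACS over DCS and DCS over control, with 95% intervals from the edgeR fit of 3 libraries per group; filled symbols have an adjusted p under 0.05. The Nr4a1 estimates for ACS are 2.63 and 2.44, those of Nr4a2 are 0.51 and 0.61, and every Nr4a3 and every DCS over control interval includes 0.

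The order of the members changed with the group. Levels of different genes were set side by side in FPKM (fragments per kilobase of exon, scaled to mapped reads), which divides by length. In ACS libraries Nr4a2 was the highest member, at 14.4, 13.4 and 16.4 FPKM, with Nr4a1 at 12.3, 9.68 and 14.9 FPKM and Nr4a3 at 10.7, 11.8 and 12.7 FPKM. The range of Nr4a1 in that group overlapped those of both other members, which did not overlap each other. In DCS libraries the order was Nr4a3 (11.9, 12.5 and 12.6 FPKM), Nr4a2 (9.70, 9.38 and 10.5 FPKM) and Nr4a1 (1.81, 2.14 and 2.92 FPKM), with no overlap between members. The control libraries had the same order, with Nr4a3 at 11.8, 12.7 and 12.9 FPKM, Nr4a2 at 11.1, 10.8 and 9.48 FPKM, and Nr4a1 at 1.24, 2.02 and 2.71 FPKM. By mean FPKM, Nr4a1 stood above 61.1% of the tested genes in the ACS group, 27.7% in the DCS group and 26.4% in the control group. Nr4a2 stood above 65.8%, 55.0% and 56.8% of them in these groups, and Nr4a3 above 59.8%, 60.6% and 61.3%.

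The summed level of the family was 38.8 ± 4.68 FPKM with ACS, 24.5 ± 1.39 FPKM with DCS and 24.9 ± 0.708 FPKM in control. Mean Nr4a1 was 10.3 FPKM higher and mean Nr4a2 4.31 FPKM higher with ACS than in control, and the difference for Nr4a3 was -0.747 FPKM. Nr4a1 made up 31.4 ± 3.26% of the sum in ACS libraries, 9.28 ± 1.77% in DCS libraries and 7.95 ± 2.84% in control libraries. The share of Nr4a3 was 30.4 ± 2.94% with ACS, 50.4 ± 1.80% with DCS and 50.1 ± 1.21% in control. The share of Nr4a2 was 38.1 ± 0.646%, 40.3 ± 1.12% and 42.0 ± 4.05% in these groups.

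**Figure D3:**
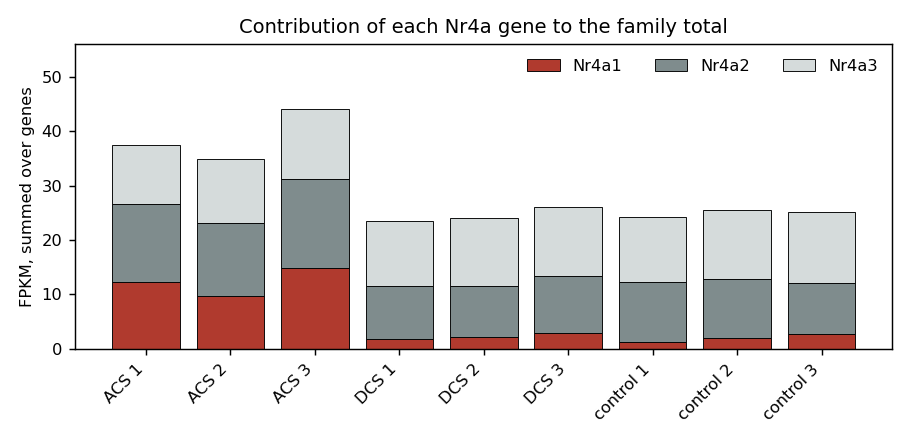
Summed FPKM of the family (vertical axis) in each of the 9 libraries, as stacked bars split by member. The ACS bars reach 34.9 to 44.0 FPKM against 24.2 to 25.6 in control, and the Nr4a1 block is 27.7 to 33.8% of each ACS bar against 5.12 to 10.8% of each control bar.

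Ratios between members within a library do not depend on the scaling of that library. The log2 ratio of Nr4a1 to Nr4a3 averaged 0.05 ± 0.29 with ACS and -2.72 ± 0.51 in control, a difference of 2.77. The log2 ratio of Nr4a1 to Nr4a2 was 2.18 higher with ACS than in control, and that of Nr4a3 to Nr4a2 differed by -0.59 (ACS minus control). Against DCS, the same 3 ratios differed by 2.50, 1.85 and -0.65. The groups did not overlap in any of these 6 comparisons, and each gave p = 0.1 by an exact two-sided permutation test, the smallest that 3 against 3 allows, with 0.15 after adjustment over the 9 ratio comparisons made. Between DCS and control all 3 ratios overlapped, with differences of 0.33, 0.26 and 0.07 and exact permutation p of 0.7, 0.5 and 0.6.

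Within groups, Nr4a1 was also the least steady member. Its coefficient of variation was 21.0% with ACS, 23.7% with DCS and 36.0% in control, where the highest library was 2.14 times the lowest. That of Nr4a2 was 10.3%, 5.12% and 8.94%, and that of Nr4a3 was 8.11%, 2.04% and 4.05%. Over the 9 libraries, which include the differences between groups, log2 CPM of Nr4a1 and Nr4a2 correlated with r = 0.879. The r of Nr4a3 was -0.299 with Nr4a1 and -0.326 with Nr4a2.

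The genes whose log2 CPM followed each member most closely over the 9 libraries were then listed by Pearson r, as a description. For Nr4a1 these were Ier2 (r = 0.991), Jun (0.990), Ccn1 (0.989), Junb (0.988) and Egr1 (0.982), all of them early response genes: Jun and Junb are subunits of the AP-1 factor, Egr1 is a zinc finger factor and Ccn1 encodes a matrix protein. Ccn1 averaged 16.2 ± 2.76 CPM with ACS, 4.81 ± 1.43 CPM with DCS and 4.45 ± 1.20 CPM in control, and Jun averaged 171 ± 9.25, 111 ± 7.02 and 113 ± 7.83 CPM. An r over 0.9 with Nr4a1 was found for 162 tested genes.

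For Nr4a2 the closest genes were Epha4 (r = 0.963), an ephrin receptor, Jmjd1c (0.962), a chromatin protein with a Jumonji domain, Col5a1 (0.957), a collagen chain, Clcn1 (0.953), a chloride channel, and Eml5 (0.953), a microtubule-associated protein. The log2 fold change of ACS over control was 0.09 for Epha4 and 0.10 for Jmjd1c, which were not called. Col5a1 (0.44, edgeR adjusted p = 0.0193) and Eml5 (0.25, adjusted p = 0.0303) were called higher with ACS than in control. An r over 0.9 with Nr4a2 was found for 75 tested genes. For Nr4a3 they were Pogz (r = 0.969), Slc37a2 (0.958), Tnn (0.957), Rin3 (0.935) and Mfng (0.929), none of which was called in a comparison, and Pogz differed by -0.04 on the log2 scale between ACS and control. An r over 0.9 with Nr4a3 was found for 17 tested genes, and with values this close between groups it rests on differences between single libraries.

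The other immediate early genes gave the members a scale. Of 38 such genes, edgeR called 16 higher and none lower with ACS than in control, against 2.83% of all tested genes called higher. At an unadjusted p under 0.05, 22 were higher and 1 was lower, and 31 of the 38 estimates were above 0. The median log2 fold change of the 38 was 0.51 against -0.0029 for all tested genes. Fos, the partner of Jun in AP-1, measured 95.6, 79.3 and 103 CPM in ACS libraries, 12.6, 13.3 and 20.2 CPM in DCS libraries and 15.2, 14.1 and 20.6 CPM in control libraries (log2 fold change of ACS over control 2.48, SE 0.20; edgeR adjusted p = 0.000361). Egr1 measured 207, 184 and 231 CPM with ACS, 33.1, 37.1 and 46.9 CPM with DCS, and 35.7, 49.1 and 52.8 CPM in control (2.18, SE 0.17; adjusted p = 0.000301). For both, every ACS library was above every other library, as for Nr4a1. Junb rose by 1.12 and Ier2 by 1.13 on the log2 scale.

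Nr4a1 had a larger estimate than 37 of the 38 early genes. The exception was Egr4, whose estimate of 3.57 did not pass the test (edgeR adjusted p = 0.110) and which averaged 1.33 CPM with ACS and 0.109 CPM in control. Npas4, a factor induced by calcium entry in neurons, was closest below, at 2.51 (SE 0.31), with 36.7, 23.4 and 37.2 CPM in ACS libraries, 4.98, 4.51 and 8.71 CPM in DCS libraries and 5.01, 4.25 and 7.75 CPM in control libraries. Nr4a2 was above 19 of the 38 and Nr4a3 above 6 of them. Between DCS and control, none of the 38 was called by edgeR or by DESeq2. Over all tested genes edgeR called 0.0123% in this comparison in either direction, so a count of 0 is near that share. At an unadjusted p under 0.05, 3 of the 38 were higher, and the median log2 fold change of the 38 was -0.01. Between ACS and DCS, edgeR called 10 higher and none lower, against 0.510% of all tested genes called higher, with a median of 0.52. In that comparison 1 was lower at an unadjusted p under 0.05, and DESeq2 called 19 higher and 1 lower.

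**Figure D4:**
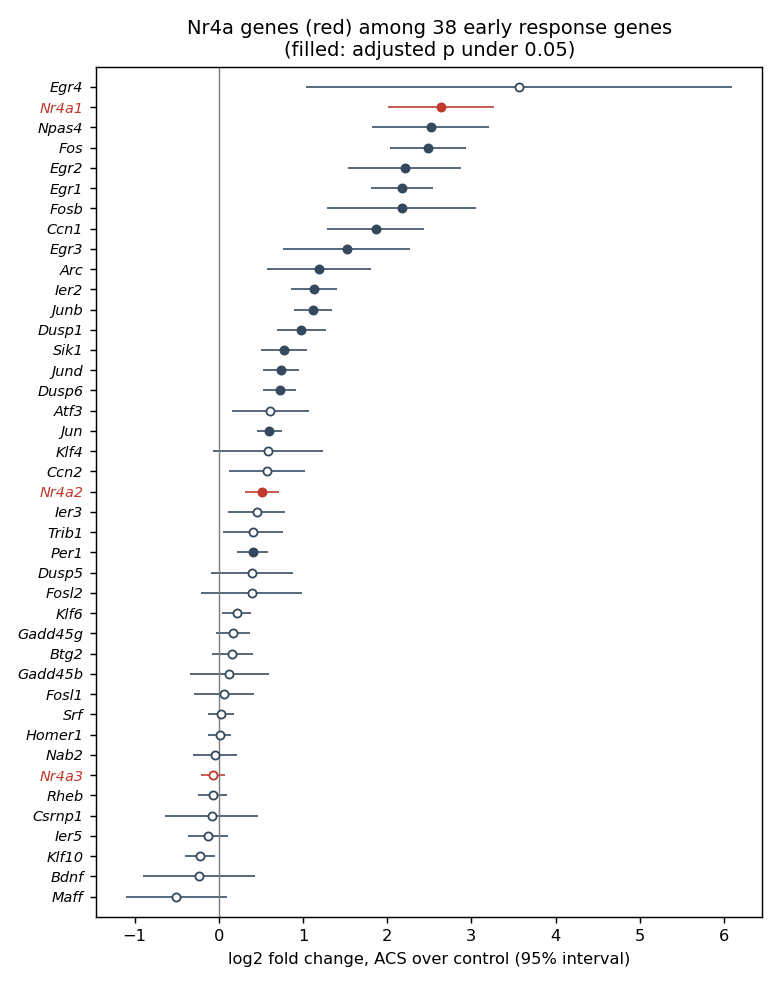
Log2 fold change of ACS over control (horizontal axis) with 95% intervals for the 3 Nr4a genes (red) and 38 other early response genes (dark), ordered by estimate; filled symbols have an adjusted p under 0.05 (edgeR, 3 libraries per group). Nr4a1 at 2.63 is second to Egr4 at 3.57, which is not filled, Nr4a2 lies at 0.51 and Nr4a3 at -0.08.

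The other nuclear receptor genes were set beside the members. Of 46 genes for other receptors in the table, 32 passed the filter, and edgeR called 0 of them between ACS and control, where 2 had an unadjusted p under 0.05 and DESeq2 called 1. With 2.83% of all tested genes called higher and 1.33% lower, a count of 0 among 32 is near the share over all genes. Their median log2 fold change was 0.05, and the highest was 0.87 for Pgr, the progesterone receptor (edgeR adjusted p = 0.135). The estimate of Nr4a1 was above all 32 and that of Nr4a2 above 31. By mean FPKM within a group, 5 of the 32 were higher than Nr4a1 in the ACS group, 23 in the DCS group and 23 in the control group. For Nr4a2 these numbers were 4, 7 and 6, and for Nr4a3 they were 5, 4 and 4. The most abundant over the 9 libraries were Thra, the thyroid hormone receptor alpha gene, at 135 FPKM (log2 fold change 0.19, adjusted p = 0.258) and Nr2f1, a factor of cortical area patterning, at 67.6 FPKM (0.23, adjusted p = 0.0777).

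**Figure D5:**
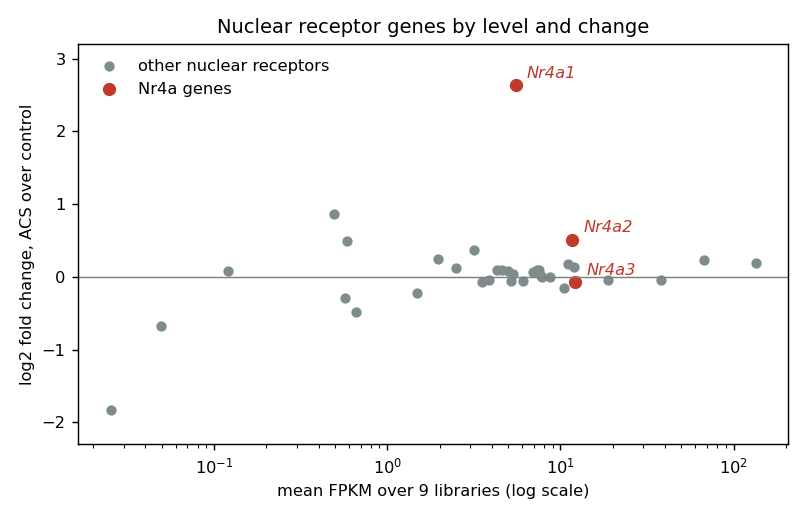
Mean FPKM over 9 libraries (horizontal axis, log scale) against the log2 fold change of ACS over control (vertical axis) for the 3 Nr4a genes (red) and 32 other nuclear receptor genes (grey). Nr4a1 at 2.63 lies above all other receptors, Nr4a2 at 0.51 above all but Pgr (0.87), and Nr4a3 at -0.08 among the rest.

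Genes that act before or beside the Nr4a proteins were then read. Among 16 factors known to switch Nr4a genes on, Elk1, a partner of SRF, rose by 0.26 (edgeR adjusted p = 0.0118) and Crtc2, a coactivator of CREB, rose by 0.40 (adjusted p = 0.0143) on the log2 scale with ACS relative to control. Creb1, the gene of CREB itself, fell by 0.36 (adjusted p = 0.0456), with 17.2 CPM in the ACS group and 22.1 CPM in the control group, and fell by 0.46 relative to DCS (adjusted p = 0.0491). Relative to DCS, edgeR called neither Elk1 (0.12, adjusted p = 0.238) nor Crtc2 (0.29, adjusted p = 0.0931). Elk1 was 0.14 higher with DCS than in control and was not called there (edgeR adjusted p = 0.692). Between ACS and control, 2 of the 16 were called higher and 1 lower, against 2.83% and 1.33% of all tested genes. The median of the 16 was 0.13. The other 13 were not called by edgeR, and DESeq2 called 4 of the 16 higher and 1 lower.

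Of 15 kinases that modify or bind Nr4a proteins, edgeR called 0 between ACS and control, with 0 at an unadjusted p under 0.05 and 0 by DESeq2. Of the 3 retinoid X receptor genes, 0 were called by either tool and 0 had an unadjusted p under 0.05, with log2 fold changes of 0.09 for Rxra, -0.01 for Rxrb and 0.14 for Rxrg. Of 17 genes for coregulators of nuclear receptors, such as Hdac2, or for protein modifiers, such as Sumo2, edgeR called 0. At an unadjusted p under 0.05, 3 of the 17 were lower, and DESeq2 called 1 lower. Over all tested genes, edgeR called 2.83% higher and 1.33% lower. Counts of 0 in these 3 short lists are near that share.

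Genes described as targets of the family were few, and at the share of all tested genes that was called (2.83% higher and 1.33% lower) counts of 0 in lists this short are near the background. Of 7 tested genes that Nr4a2 maintains in midbrain dopamine neurons, edgeR and DESeq2 called 0 and 0 had an unadjusted p under 0.05, and Th, for tyrosine hydroxylase, had a mean of only 0.117 FPKM. Of 10 tested genes listed as targets in other tissues, edgeR and DESeq2 called 0. At an unadjusted p under 0.05, 1 was higher with ACS than in control and 0 were lower. The most abundant of them, Spp1, which encodes osteopontin, averaged 56.4 CPM with ACS and 138 CPM in control, with a log2 fold change of -1.29 (SE 0.72; edgeR adjusted p = 0.346).

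Markers of the cells in culture were read beside these results. Excitatory neuron markers summed to 414 to 424 FPKM in ACS libraries, 391 to 427 in DCS libraries and 401 to 402 in control libraries, so the labelled cell type was present, and 2 of 10 (Emx1, log2 fold change 0.41, and Cux2, 0.28) were called higher with ACS than in control, against 2.83% of all tested genes. DESeq2 called 4 of the 10 higher. Of 10 genes of subplate and layer 6 neurons, where Nr4a2 is expressed, edgeR called 0. At an unadjusted p under 0.05, 2 were higher, and DESeq2 called 1 higher, with a median log2 fold change of 0.12. The highest estimate was 0.57 for Ccn2, named because it is also among the 38 early response genes. The 10 genes summed to 81.1 to 83.8 FPKM with ACS and 70.2 to 83.6 FPKM in control.

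Of 11 markers of progenitors and dividing cells, 3 were called lower with ACS, against 1.33% of all tested genes: Hes5 (log2 fold change -1.54), Mki67 (-0.22) and Vim (-0.19). The estimates of the 11 were mixed, with 4 above 0, a highest of 0.41 and a median of -0.13. The 11 markers summed to 293 to 315 FPKM with ACS, 325 to 356 FPKM with DCS and 336 to 349 FPKM in control. Glial markers were also present. The astrocyte list summed to 181 to 261 FPKM with ACS and 231 to 240 FPKM in control, with 1 of 8 (Gfap, 0.25) called higher against 2.83% of all tested genes. The estimates of the 8 were mixed, with 4 above 0, 1 lower at an unadjusted p under 0.05, and 1 higher and 1 lower by DESeq2. The microglia list summed to 82.9 to 84.4 FPKM with ACS, 84.7 to 88.1 FPKM with DCS and 78.5 to 81.1 FPKM in control. Between ACS and control, 1 of 10 (C1qa, 0.76) was called higher. The estimates of the 10 were mixed, with 6 above 0, a median of 0.05 and a lowest of -0.28.

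Of 9 oligodendrocyte lineage markers edgeR called 0, with 1 lower at an unadjusted p under 0.05 and 0 by DESeq2. Of 10 interneuron markers edgeR called 0, with 4 higher at an unadjusted p under 0.05 and 3 higher by DESeq2. Interneuron estimates were above 0 for 9 of the 10, with a median of 0.19 against 0.13 for the excitatory list. Of 6 fibroblast markers edgeR called 0, with 1 higher at an unadjusted p under 0.05, 1 higher by DESeq2 and 2 estimates above 0. Of 6 endothelial markers it called 0, with 0 by both other counts. Over all tested genes, edgeR called 2.83% higher and 1.33% lower, and counts of 0 in lists this short are near that share. Endothelial markers were near 0, at 0.849 to 1.16 FPKM in all with ACS and 0.802 to 1.12 FPKM in control, and 4 of 7 had a mean under 0.1 FPKM. The part of these differences in marker levels in the Nr4a results was not tested.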

How the data were processed

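Gene expression was measured by poly(A) RNA sequencing (paired-end, strand-marking kit, adapters with molecular identifiers) in 9 libraries. The authors trimmed reads (fastp in the study's methods, cutadapt 1.9 in the submitters' processing notes), mapped them with HISAT2 2.0.4 and assembled and quantified transcripts with StringTie 1.3.4d; the notes also name UMI-tools, DESeq2 and edgeR. The deposited table of the authors holds whole-number counts, not normalized, and FPKM per gene, and FPKM divides by mapped reads and exon length. How molecular identifiers were used and how StringTie's output became counts are not given in the sources used here. The study's methods call the genome Rattus norvegicus GRCh38, a name otherwise used for a human build, and the table names none. The study named genes changed at a fold over 2 or under 0.5 with an unadjusted p under 0.05.

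Counts were fitted with edgeR 4.0.16 (R 4.3.3; TMM, filterByExpr with a minimum count of 10, quasi-likelihood F test, all 9 libraries), and p-values were adjusted by Benjamini-Hochberg over 16284 genes; calls have an adjusted p under 0.05. The common biological coefficient of variation was 0.218, with 6 residual degrees of freedom. CPM were computed from the counts with TMM-scaled library sizes. Likeness used log2 CPM with a prior count of 2, computed from the deposited counts of the authors. The script was tested on simulated data. The members and gene lists were chosen with earlier results of these data known. The text names the members, the 5 genes most correlated with each and, per list, up to 4 called or 2 abundant genes, with exceptions named as such. Alternatives were DESeq2 1.42.0, limma 3.58.1 on log2(FPKM + 0.1) and log2(FPKM + 1), other scalings and filters, 6 libraries only, a replicate block, counts divided by 4 (multiples of 4 made up 30.7 to 33.1% of the counts from 1 to 40 in a library, more than evenly spread counts would give), and each library left out. RefSeq windows before annotated starts (GRCr8) were matched by symbol, for 2 of the 3 members. A kinase of one list is not reported here.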

Additional observations from a re-analysis of the deposited data

How the results depend on the processing

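The Nr4a1 call held in all 19 alternatives both for ACS over control and for ACS over DCS: log2 fold changes were 2.39 to 2.91 and 2.28 to 2.64 with a library left out, and 2.16 to 2.68 and 2.01 to 2.46 otherwise. The Nr4a2 call held in 17 of 19 for ACS over control (0.43 to 0.58 with a library left out) and in 14 of 19 for ACS over DCS (0.52 to 0.67). Nr4a3 was called in none: it ranged from -0.13 to -0.02 for ACS over control, -0.11 to 0.01 for ACS over DCS (0.0077 without ACS library 1) and -0.06 to -0.01 for DCS over control when a library was left out. For DCS over control, Nr4a1 ranged from -0.05 to 0.47, being -0.016 without DCS library 3 and -0.047 without control library 1, and Nr4a2 from -0.17 to -0.05. Without control library 1 the ratios of Nr4a1 to Nr4a2, Nr4a1 to Nr4a3 and Nr4a3 to Nr4a2 were -0.021, -0.0061 and -0.015 for DCS minus control, with highest values of 0.66, 0.50 and 0.16 without another library; in the ACS comparisons all kept their direction. The causes were not tested.

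The replicate block used the labels' numbers, and the labels do not say whether these stand for shared cultures. Over all tested genes, deviations of same-numbered libraries correlated at -0.0532 to 0.0631 (9 pairs) and of others at -0.0610 to 0.0416 (18 pairs). Nr4a1 was highest in library 3 of every group, at 41.2 CPM with ACS, 7.92 CPM with DCS and 7.40 CPM in control. With the block, the SE of its ACS over control estimate was 0.19, against 0.28 without it. Whether same-numbered libraries shared a culture was not tested. With the replicate block, Nr4a2 was at 0.60 for ACS over DCS (edgeR adjusted p = 0.0501) and at 0.51 for ACS over control (0.0382), Nr4a1 stayed called in both, and 1 gene was called for DCS over control and 59 for ACS over DCS. Counts of called genes were 678 for ACS over control by edgeR, 1652 by DESeq2 and 138 to 1431 with a library left out. For DCS over control they were 2, 38 by DESeq2, 1 with limma on log2(FPKM + 1), with 6 libraries only and with counts divided by 4, and 1 to 47 with a library left out. For ACS over DCS they were 103, 660 by DESeq2, 65 and 64 with limma on log2(FPKM + 0.1) and log2(FPKM + 1), and 27 to 184 with a library left out. Among the fits with a library left out, the highest counts came without control library 3, and the causes were not tested. With 3 libraries per group, the interval of Nr4a1 between DCS and control ran from -0.41 to 0.80 on the log2 scale. Changes within it could have gone undetected.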
